A study of Danio rerio with 6 samples.

Results

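Homeobox genes encode transcription factors that bind DNA through a homeodomain and assign position and cell identity in the embryo. Hox proteins mark levels of the body axis, and the Pbx and Meis proteins, which belong to the TALE class of homeodomain proteins, bind DNA together with Hox proteins and with each other. Other families are known for particular tissues, such as POU4 proteins in sensory cells, Pitx1 in the pituitary and hindlimb of mammals, and Iroquois proteins in the nervous system, heart and kidney. Members were array targets with a RefSeq mRNA identifier whose zebrafish symbol began with the name of a homeobox family, among them hox, dlx, pax, lhx, nkx, pou, irx, msx, emx, otx, gsx, barhl, evx, pitx, vsx, tlx, isl1, isl2, meis and pbx. The rule found 19 targets of 18 genes among 37157 targets, of which 2663 had a RefSeq mRNA identifier with a current symbol. These are a small sample of the class, since 191 symbols of the zebrafish annotation meet the same name pattern and no target of the Dlx or LIM families was among the 19. The pbx1a gene has 2 targets, and 2 members are not homeodomain factors: paxbp1 encodes a protein that binds Pax factors and met the rule by its name, and Pax1 proteins carry a paired domain without a homeodomain, which leaves 17 targets.

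RNA was taken at 120 hours post fertilization (hpf) from whole larvae of the wild-type AB strain, in 3 pools irradiated with 5 Gy from a Co-60 source at 26 hpf and 3 control pools, which the methods describe as mock irradiated. Each pool held 50 larvae and was hybridized to its own one-colour NimbleGen array, so values describe pools and not single fish, and a gene used in few cells is diluted by the rest of the body. Fewer cells of a type and less RNA per cell cannot be told apart in such pools. The values below are log2 intensities of a target on 1 array, and a ratio is the mean at 5 Gy minus the mean in controls on that scale. A target is called altered at an unadjusted p under 0.05 by limma together with a ratio of at least 0.585 in size, a fold of 1.5, which are the thresholds of the study. The comparison asks which genes differed at 120 hpf after exposure at the highest dose without gross morphological change.

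Arrays differed in ways that the dose does not follow. Over all targets control replicate 3 correlated more closely with 5 Gy replicate 3 (r = 0.987) than with control replicates 1 and 2 (r = 0.897 and 0.905), and 5 Gy replicate 2 was the lowest pool for 27.5% of targets. Few defining markers of tissues were among the named targets. The skeletal muscle actin acta1b, the only measured marker of 18 listed for muscle, lay between 14.97 and 15.43 in all 6 pools. The neuronal stathmin stmn2b, the only measured marker of 18 listed for neurons, lay between 11.32 and 11.90 in controls, at 11.68 and 11.85 in 5 Gy replicates 1 and 3 and at 10.05 in 5 Gy replicate 2. Of 14 markers listed for neural progenitors fabp7a and sox19b were measured, with ratios of 0.11 and 0.14, and neither passed the test. None of the markers listed for liver or photoreceptors was measured here under a RefSeq identifier.

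Of the 19 homeobox targets, pbx3b was lower at 5 Gy, none was higher, and 18 did not pass the test. The 1 call is 5.26% of the members, near the background of 4.04% of all targets called (2.89% of all targets lower and 1.15% higher). The smallest adjusted p of a member in limma was 0.905, and only the pbx3b target had an unadjusted p under 0.05. The ratio was below 0 for 13 members and above 0 for 6, with a median of -0.17, whereas 53.4% of all targets were below 0, with a median of -0.03. Ratios ranged from -0.94 for pbx3b to 0.37 for pou4f3.

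**Figure D1:**
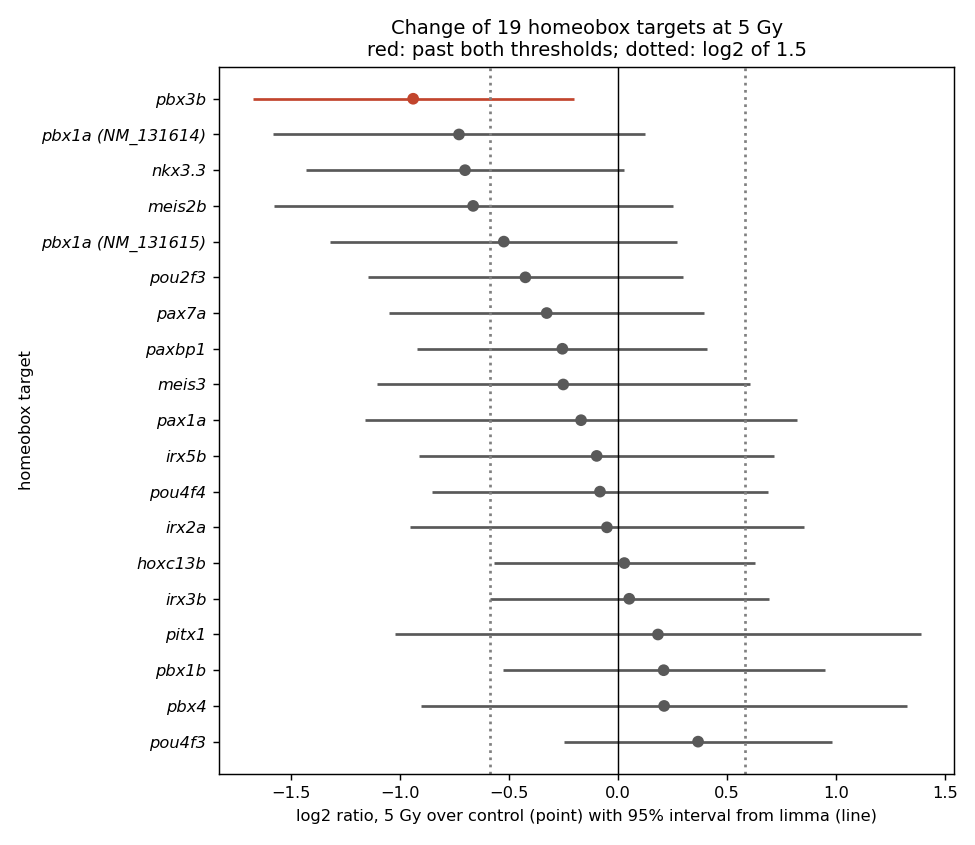
Log2 ratio of 5 Gy to control for each of the 19 homeobox targets (point, x axis) with its 95% interval from limma (line), 3 pools per group; dotted lines mark a fold of 1.5. The interval of pbx3b alone, -1.67 to -0.20, leaves out 0.

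The Pbx and Meis cofactors held 7 of the 19 targets. The only call among them was pbx3b, a target that the study also lists as lower, without a gene name. Its value was 12.23, 12.32 and 11.84 in control replicates 1, 2 and 3 and 11.38, 10.70 and 11.50 in the 5 Gy pools of the same numbers. All 3 irradiated pools lay below all 3 controls, with 5 Gy replicate 2 the lowest of them. The mean fell from 12.13 ± 0.252 to 11.19 ± 0.433 (SD, n = 3 pools each), a 1.92-fold lower intensity. The ratio was -0.94 (standard error 0.321, unadjusted p = 0.0186 and adjusted p = 0.905 from limma), and the exact permutation test of 3 pools against 3 gave p = 0.1 (two-sided, the smallest possible). Groups without overlap in this direction were found for 4.70% of all targets. The ratio was below 0 on each of the 12 probes, from -1.50 to -0.39, which holds for 7.55% of all targets with 12 probes. On 5 of these probes all irradiated pools lay below all controls. The call was lost without control replicate 1 (ratio -0.89), control replicate 2 (-0.84) or 5 Gy replicate 2 (-0.69), where the unadjusted p rose above 0.05, and in the paired version of the test named in the methods. The difference within the pools of one number was -0.85, -1.62 and -0.34 for numbers 1, 2 and 3.

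The study followed a further target by quantitative PCR under the human name PBX3 (ZV700S00006338), which is not a member because it carries no RefSeq identifier. It was 12.21, 12.34 and 11.68 in controls and 10.94, 10.02 and 11.43 at 5 Gy, so its groups did not overlap either, and the order of its 6 pools was that of pbx3b. Its ratio was -1.28 (standard error 0.407, unadjusted p = 0.0134 and adjusted p = 0.905 from limma), and each of its 12 probes was below 0. Its call was lost without control replicate 2 (ratio -1.15, unadjusted p = 0.0504 from limma) and in the test named in the methods, paired or not. The study itself lists the target as lower by that test, also at a ratio of -1.28. In the unpaired form the target missed the p threshold only narrowly here, so that loss does not contradict the study's call. The PBX3 target differed from the pbx3b target by no more than 0.17 in the control pools, and lay 0.43, 0.68 and 0.07 below it at 5 Gy in replicates 1, 2 and 3. Whether both targets measure the same transcript cannot be told from their identifiers. The study selected the PBX3 target on these pools, so it is not independent evidence for pbx3b. By PCR on the same samples, the study reports a positive correlation with the array over the genes followed, PBX3 among them. At lower doses it found no significant change of PBX3.

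The targets of pbx1a, which encodes another Pbx protein, were lower in every irradiated pool than in control replicates 1 and 2, with control replicate 3 placed among the irradiated pools. The target NM_131614 was 11.31, 10.89 and 10.08 in controls and 10.23, 9.71 and 10.16 at 5 Gy, and the target NM_131615 was 11.50, 11.31 and 10.64 against 10.58, 10.27 and 11.04. Their ratios were -0.73 (95% interval -1.58 to 0.13) and -0.52 (95% interval -1.32 to 0.27), and neither passed the test. Without control replicate 3 both did, at -1.07 and -0.78, with adjusted p = 0.133 and 0.26 from limma. Omission of that pool also gave the most calls over all targets of any omitted pool, so calls were common in that setting. All 5 probes of the first target and all 3 of the second were below 0.

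The ratios of pbx4 and pbx1b were above 0, and neither gene passed the test. Like pbx3b, pbx4 was lowest in 5 Gy replicate 2, whereas pbx1b was highest there. For pbx4, which patterns the zebrafish hindbrain with Hox proteins, the values were 11.46, 11.35 and 12.48 in controls and 12.30, 11.04 and 12.59 at 5 Gy. In both groups replicate 3 was the highest pool and replicate 2 the lowest, so the spread followed the replicate number more than the dose. The ratio of pbx4 was 0.21 (95% interval -0.90 to 1.33), and with the median of probes it turned to -0.09. With array weights it was 0.87 and passed the thresholds, as did 10913 of all 37157 targets in that setting. For pbx1b the values were 8.68, 8.38 and 9.14 in controls and 8.56, 9.17 and 9.11 at 5 Gy, with a ratio of 0.21 (95% interval -0.53 to 0.95). Its groups overlapped, and 6 of its 12 probes were below 0. Whether the ratios of the Pbx genes differ from one another was not tested.

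The Meis genes, whose products join Pbx proteins on DNA, were lowest in 1 irradiated pool. For meis2b the values were 11.80, 11.89 and 11.48 in controls and 11.45, 10.20 and 11.53 at 5 Gy. 5 Gy replicates 1 and 3 lay at the level of control replicate 3, and 5 Gy replicate 2 was far below every other pool. The ratio was -0.66 (95% interval -1.58 to 0.25), with all 10 probes below 0, and it was -0.24 without 5 Gy replicate 2. For meis3, which acts in hindbrain patterning, the values were 9.43, 9.37 and 9.62 in controls and 9.91, 8.56 and 9.21 at 5 Gy, so the irradiated pools lay on both sides of the controls. Its ratio was -0.25 (95% interval -1.10 to 0.60) and turned to 0.08 without 5 Gy replicate 2.

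**Figure D2:**
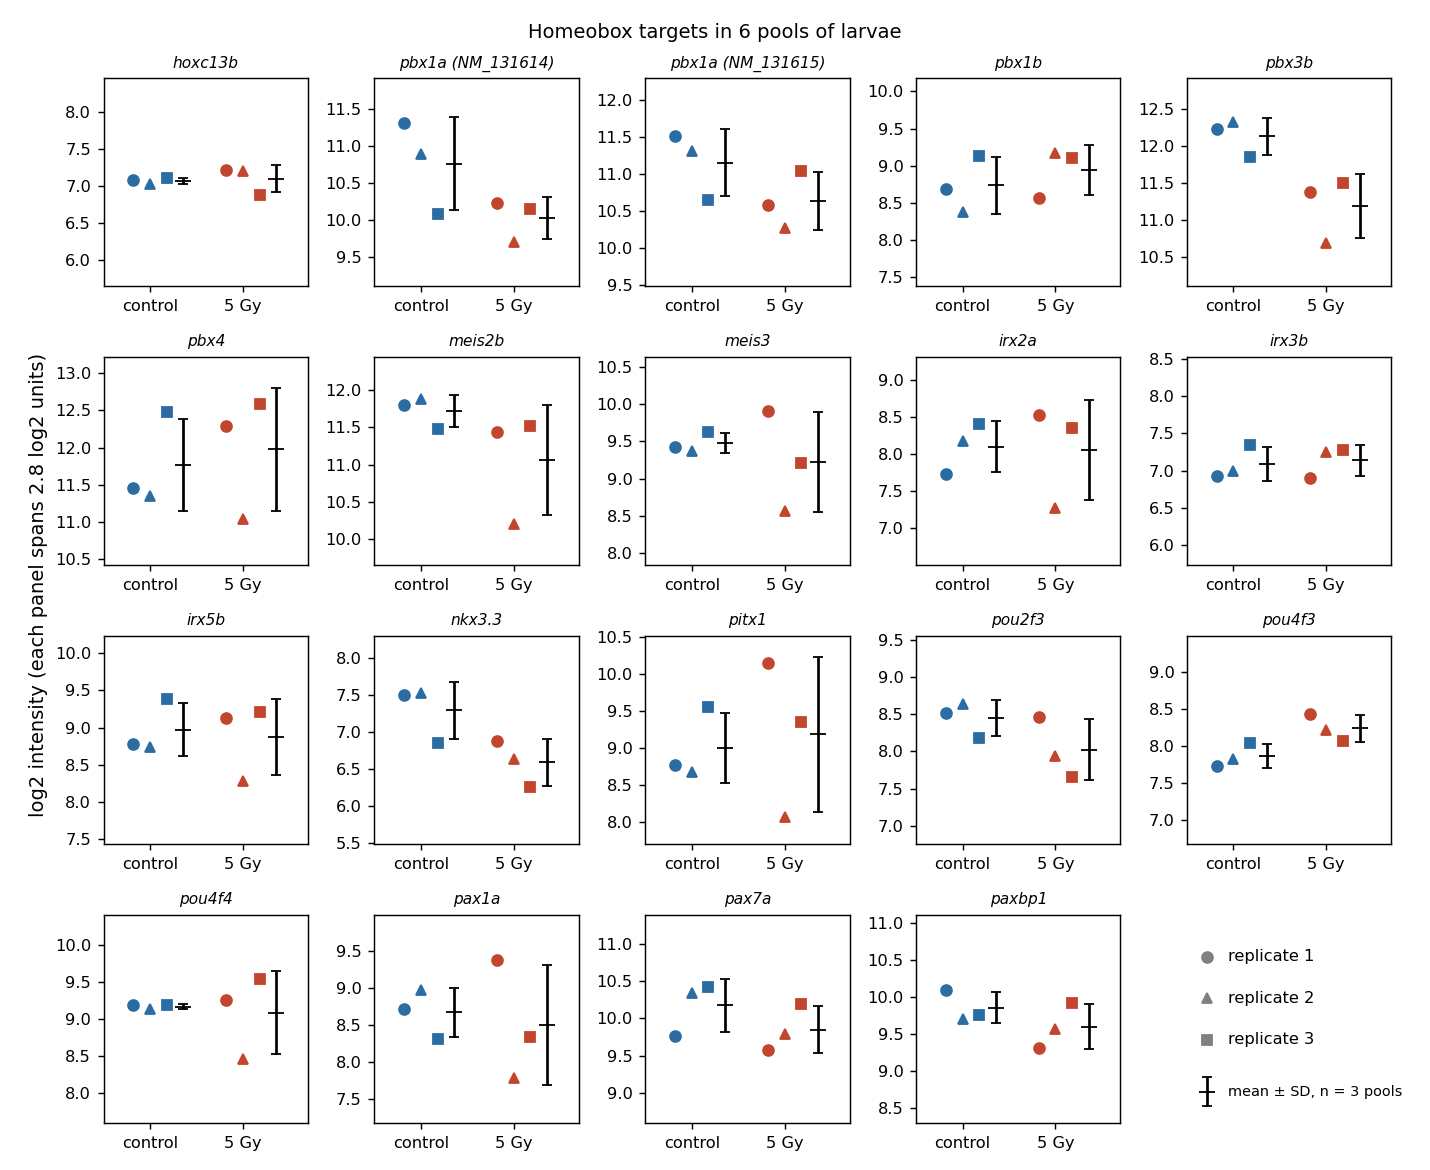
Log2 intensity (y axis, each panel spanning 2.8 log2 units) of the 19 homeobox targets in 3 control pools (blue) and 3 pools at 5 Gy (red), with replicates 1, 2 and 3 as circle, triangle and square and the mean ± SD of 3 pools in black. The groups stand apart for pbx3b, with every red point below every blue one, and for pou4f3, with every red point above.

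The 1 Hox gene and the 3 Iroquois genes among the members, which set positions along the axis and within tissues, showed ratios near 0. The study lists targets of HOXA9 and HOXA11, which carry no RefSeq identifier, as higher at 5 Gy. The value of hoxc13b therefore does not stand for the Hox genes as a family. The posterior gene hoxc13b lay between 7.02 and 7.11 in controls and was 7.21, 7.20 and 6.88 at 5 Gy. Its ratio was 0.03 (95% interval -0.57 to 0.63) with probes combined by median polish, and the interval holds for that way of combining them only. The ratio was 0.26 with the mean of probes and 0.36 with the median of probes. Its group means of 7.07 in controls and 7.10 at 5 Gy lay just above 6.97, the limit of the dimmest targets. Whether a change could be seen at so low a level was not tested. The levels of irx3b, known for patterning of the zebrafish pronephros, were 6.92, 7.00 and 7.35 in controls and 6.90, 7.25 and 7.28 at 5 Gy, with a ratio of 0.05 (95% interval -0.59 to 0.69). The values of irx5b were 8.78, 8.74 and 9.38 in controls and 9.12, 8.28 and 9.21 at 5 Gy, and those of irx2a 7.72, 8.18 and 8.40 against 8.53, 7.28 and 8.35. The ratios were -0.10 and -0.05, and both were above 0 without 5 Gy replicate 2 (0.20 and 0.34), the pool in which each had its lowest value. In the annotation irx3b and irx5b lie near each other, with 1 protein-coding gene between them, yet in 5 Gy replicate 2 irx5b was at its lowest and irx3b was above its own mean.

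The POU genes included pou4f3, required for hair cells of the ear, which had the highest ratio of the members. It was 7.73, 7.83 and 8.04 in controls and 8.42, 8.21 and 8.07 at 5 Gy, so all irradiated pools lay above all controls, by 0.03 between the nearest pools. Such a separation upward was found for 2.78% of all targets. The mean went from 7.87 ± 0.159 to 8.23 ± 0.177 (SD, n = 3 pools each), and the ratio of 0.37 (standard error 0.267, unadjusted p = 0.204 and adjusted p = 0.905 from limma) passed neither threshold. 3 of its 12 probes were below 0. The related gene pou4f4 was within 0.051 in the 3 controls, from 9.14 to 9.19, and was 9.26, 8.47 and 9.54 at 5 Gy, with a ratio of -0.08 (95% interval -0.85 to 0.69). For pou2f3, a factor of epidermis and of chemosensory tuft cells in mammals, values were 8.52, 8.65 and 8.17 in controls and 8.47, 7.94 and 7.66 at 5 Gy. Its ratio was -0.42 (95% interval -1.15 to 0.30), and single probes ranged from -2.26 to 1.39. The probe at -2.26 was 12.02 in control replicate 1 and between 6.04 and 7.34 in the other pools, so its ratio rests on 1 value.

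Among the remaining members nkx3.3, of the same family as the jaw joint gene nkx3.2, came nearest to a call. It was 7.49, 7.52 and 6.85 in controls and 6.88, 6.63 and 6.26 at 5 Gy, so that control replicate 3 lay just below 5 Gy replicate 1 and the groups overlapped. The ratio was -0.70 (standard error 0.318, unadjusted p = 0.0580 from limma). With the replicate number as a block nkx3.3 passed both thresholds (adjusted p = 0.567 from limma), which made 2 members called, both lower. It also passed without control replicate 3 (ratio -0.92), the omission with the most calls over all targets, or without 5 Gy replicate 1 (-0.85). In the fit with the block 8.81% of all targets were called and 5.19% were lower. The difference was similar within each number, at -0.61, -0.89 and -0.59. Its mean level lay in the dimmest 25% of targets, the only member of which this holds, and 9 of its 12 probes were below 0.

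The Pitx and Pax members varied most among irradiated pools or rested on few probes. For pitx1 the values were 8.78, 8.68 and 9.55 in controls and 10.14, 8.07 and 9.34 at 5 Gy, a range of 2.07 among irradiated pools and the widest of any member. The ratio was 0.18 (95% interval -1.02 to 1.39) and turned to -0.29 without 5 Gy replicate 1. Similarly pax1a, a gene of the pharyngeal pouches and sclerotome, was 8.72, 8.97 and 8.32 in controls and 9.38, 7.78 and 8.34 at 5 Gy, with a ratio of -0.17 (95% interval -1.16 to 0.82). In both genes 5 Gy replicate 1 was the highest and 5 Gy replicate 2 the lowest of the 6 pools. The pigment and muscle progenitor gene pax7a has 2 probes and was 9.77, 10.34 and 10.42 in controls and 9.57, 9.78 and 10.20 at 5 Gy, with a ratio of -0.33 (95% interval -1.05 to 0.40). Each irradiated pool of pax7a lay below the control of the same number, by 0.20, 0.56 and 0.22. The paxbp1 target had a ratio of -0.25 (95% interval -0.92 to 0.41).

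**Figure D3:**
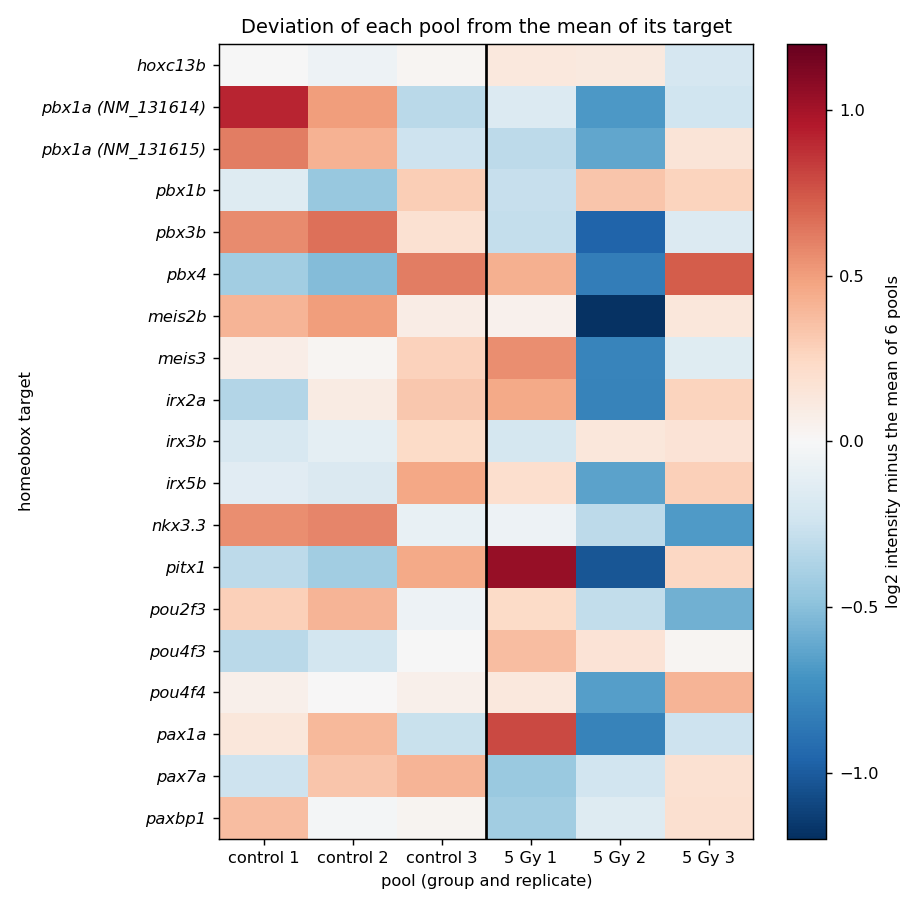
Log2 intensity of each homeobox target (rows) in each of the 6 pools (columns) minus the mean of that target over the pools, on a colour scale from blue (lower) to red (higher). 5 Gy replicate 2 is the lowest pool for 11 of the 19 targets, and pbx3b, nkx3.3 and pbx1a (NM_131614) are below their means in each irradiated pool.

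Across the members 5 Gy replicate 2 stood apart more than the dose groups did. It was the lowest pool for 11 of the 19 targets, against 27.5% of all targets, and below the target's own mean for 15 of them. The median deviation of the members in this pool was -0.64, whereas it was between 0.02 and 0.15 in the other 5 pools and -0.09 over all targets in the same pool. The stathmin stmn2b was also lowest there, and its part in these values was not tested. In pairs of the same number the median difference of the members was -0.02, -0.67 and -0.05 for numbers 1, 2 and 3, with 10, 15 and 11 of the 19 below 0. Without 5 Gy replicate 2 no member was called, and the median ratio was -5.4e-04. The members that did not follow it were pbx1b, irx3b, hoxc13b and pou4f3, which were above their own means in that pool. Control replicate 3 was nearer to 5 Gy replicate 3 than to the mean of the other controls for 14 of the 19 members, as for 75.9% of all targets. The spread within groups was like that of the array, with a median pooled SD of 0.393 for the members and 0.435 for all targets.

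The probes of a target showed how uniform each ratio was. The ratio had the same sign on every probe of 4 members (pbx3b, meis2b and both pbx1a targets), all of them below 0 and all of the Pbx and Meis group, and such uniformity downward was found for 8.44% of all targets with 2 to 12 probes. No member had every probe above 0, which holds for 6.25% of all such targets. The pbx1a targets belong to the same gene and have only 5 and 3 probes, and a shared sign is reached more easily on few probes. Probes of one target share the transcript and the RNA of a pool, so their number adds no replicate. For hoxc13b, irx2a, irx3b, meis3, pax1a, pou2f3 and pou4f4 single probes reached -0.72 or lower as well as 1.01 or higher, and the ratio of such a target rests on the way its probes are combined.

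**Figure D4:**
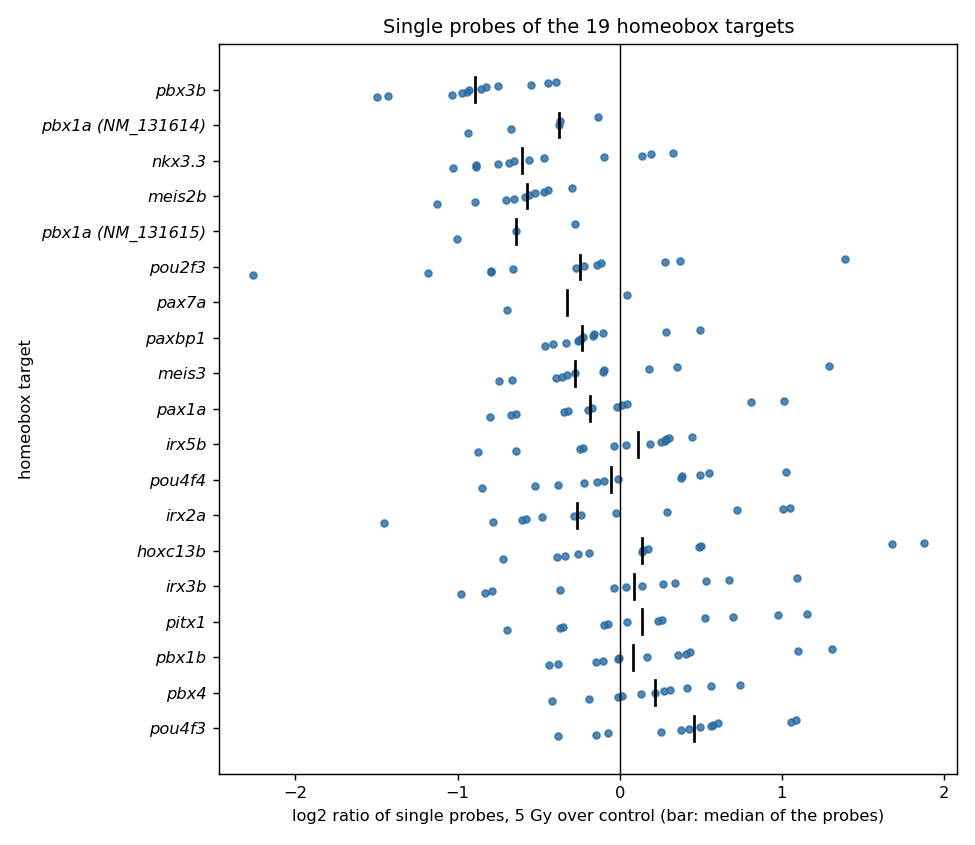
Log2 ratio of 5 Gy to control for single probes (points, x axis) of each homeobox target, mean of 3 pools per group, with the median of the probes as a bar. All 12 probes of pbx3b and all 10 of meis2b lie below 0, whereas those of pou2f3 reach from -2.26 to 1.39. The lowest probe of pou2f3 rests on 1 high value in control replicate 1.

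A list of 116 homeobox genes of other families had 16 measured targets, none of which was lower or higher by the thresholds in limma, with or without the replicate block, and 0 of which had an unadjusted p under 0.05. Of all targets 4.04% were called without the block and 8.81% with it, so few calls would be looked for among 16. Among homeobox genes outside the rule the study lists targets of EN2 and SHOX2 as lower and of CUTL2 as higher at 5 Gy. These targets carry no RefSeq identifier, so the 16 do not stand for all homeobox genes outside the rule. The median ratio of the 16 was 0.20, with 6 below 0, and they ranged from -0.44 to 0.71. The somite gene meox1 was 8.70, 8.96 and 8.93 in controls and 10.24, 9.32 and 9.16 at 5 Gy, so all irradiated pools lay above all controls. Its ratio was 0.71 (standard error 0.347, unadjusted p = 0.0745 from limma) and it was the only 1 of the 16 whose groups did not overlap. Groups without overlap in either direction were found for 7.49% of all targets. The sensory neuron gene drgx had the next smallest unadjusted p of the 16 (0.208 from limma), with a ratio of 0.43, and its groups overlapped.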

How the data were processed

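The table deposited by the authors holds linear intensities of 385000 single probes on 6 arrays, read with NimbleScan and already quantile normalized. Per the labels RMA was used, but the probes are not combined in this table. No value column was left out (0). Whether background was subtracted is not given in the sources used here. Arrays have no read depth, and their number limits the precision.

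For each target one log2 intensity per array was obtained from its probes by median polish (tolerance 0.01, up to 10 iterations). Groups were compared in R 4.3.3 with limma 3.58.1 (lmFit and eBayes without covariates), and p-values were adjusted by Benjamini-Hochberg over 37157 targets. The procedure was tested on simulated data. Symbols were matched by RefSeq mRNA identifier to the annotation of assembly GRCz12tu, and the platform annotation gave the same symbol for all 19 members. Coordinates served only to order genes along chromosomes, and sequences were not used here.

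The members and gene lists were chosen with earlier results of these data known. The rule for named genes took all called members, per family the 2 with the smallest p and the 1 with the widest control range, all Meis and Pbx members, the PBX3 target of the study, and up to 4 called genes of other homeobox families or the 2 with the smallest p. The members that the rule did not take, pou4f4 and paxbp1, are described as well. Replicates were separate clutches by the methods, which do not say that pools of one number share a clutch. With group means removed, pools of the same number correlated at 0.150, 0.239 and 0.497 across targets. All 3 exceed 0.1, and limma was therefore also run with the replicate block. Pools of unlike number in different groups correlated at -0.408 to 0.166, so number 1 did not stand apart from them. Further settings were median centring, a second quantile normalization, the mean or median of probes, an offset of 50, omission of the dimmest 25% of targets, array weights, an eBayes trend, the methods' own t-test and its paired version, and omission of each pool.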

Additional observations from a re-analysis of the deposited data

How the results depend on the processing

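The ratio of pbx3b stayed below 0 in all 17 other settings, from -1.09 to -0.69. The count of members called was 2 (both lower) with the replicate number as a block, against 3272 of all targets, 5 with array weights (4 lower and 1 higher, against 10913 of all targets), and 0 at an adjusted p of 0.05 in limma, where 1 member had an unadjusted p under 0.05. The 5 were pbx3b, nkx3.3, pbx1a (NM_131614) and pou2f3, lower, and pbx4, higher, and nkx3.3 had an adjusted p of 0.0436 there. The methods' t-test called 1 member and 569 of all targets, and its paired form 1 member, nkx3.3, and 341 of all targets. Leaving out 1 pool gave 0 to 4 members called, 0 to 4 lower, and 308 to 7126 of all targets, with the highest counts without control replicate 3 and no member called without control replicate 1 or 2 or 5 Gy replicate 2. The block changed no other call. The median ratio of the members ranged from -0.29 to -5.4e-04 over the settings.

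Ratios near 0 changed sign in some settings. These were pou4f4 with the mean of probes (0.0507), irx3b (-0.0502), meis3 (0.0516) and pbx4 (-0.0873) with the median of probes, and hoxc13b (-0.0623), irx2a (0.21), irx5b (0.27) and pou4f4 (0.19) with array weights. The ratio of hoxc13b kept its sign but rose to 0.26 with the mean and 0.36 with the median of probes. When 1 pool was left out, the ratio ranged from -0.0264 to 0.137 for hoxc13b, -0.29 to 0.34 for irx2a, -0.0314 to 0.183 for irx3b, -0.26 to 0.20 for irx5b, -0.59 to 0.0825 for meis3, -0.61 to 0.19 for pax1a, -0.10 to 0.68 for pbx4, -0.29 to 0.74 for pitx1 and -0.31 to 0.23 for pou4f4. The cause was not tested.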
